A study of Mus musculus with 4 samples.

Results

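The complement components C1qa, C1qb, C1qc, C2, C3, C4b, Hc, Cfb and Cfp were followed through the cells of mouse lung tumours. Each gene was found by its symbol in the feature list, and all 9 were present among 32289 features. Tumours had been started in the airways with Ad-mSPC-FlpO, an adenovirus that carries Flp recombinase behind a surfactant protein C promoter. The alleles p53frt, Rosa-FSF-CreERT2 and Hnf4aflox were shared by all libraries, so the vehicle libraries carried them too. CreERT2 is a Cre recombinase that tamoxifen activates. Tamoxifen or vehicle was given 10 weeks after the virus, and cells were collected 2 weeks later. The treatment label calls the vehicle ethanol, whereas the protocol names corn oil. From each treatment, 1 portion of the tumour cell suspension was kept whole and 1 was depleted of CD45+ and CD31+ cells, which are leukocytes and endothelial cells. This gave 4 libraries of 10x Genomics single-cell RNA-seq, 1 per group. Both portions were frozen, thawed and sorted for live cells. The number of mice and tumours behind a library was not stated, and the portions of a treatment are not replicates of each other.

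Complement is a cascade of plasma proteins that marks and attacks targets. C1q, built from the chains of C1qa, C1qb and C1qc, recognises bound antibody and dying cells and starts the classical pathway. Its proteases cleave C4, made from C4b in mice, and C2, and the resulting enzyme cleaves C3. Factor B, from Cfb, forms the C3-cleaving enzyme of the alternative pathway, which properdin, from Cfp, stabilises. Hc encodes C5, whose cleavage starts the terminal pathway. The liver makes most of the circulating protein of many components, though not of all. Macrophages are known for local C1q and alveolar type 2 cells for local C3 and C5.

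The libraries held 6558 to 7867 barcodes and 92644997 to 144994771 unique molecular identifiers (UMIs, each a counted RNA molecule). After filters 6111 to 7358 cells remained in each library. Library pairs shared 10 to 18 barcodes, at most 0.2745% of the smaller library. Cells were sorted into sources by clusters named from marker genes, with no complement gene used for clustering or naming. A source's level is its UMIs of a gene divided by all of its UMIs and scaled to 1000000 (CPM). Intervals are exact 95% Poisson intervals, or exact Clopper-Pearson intervals for shares, and cover counting error only. With 1 library per group no test was possible, and the spread between animals is unknown. Counts were taken near the 3′ end and not scaled by length, so levels are compared between sources and libraries, not between genes.

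Hnf4a is the gene that tamoxifen was to delete. Its level in epithelial cells was 49.12 CPM (46.61 to 51.74) in the library labelled vehicle and 82.73 (79.6 to 85.96) in the one labelled tamoxifen before depletion. After depletion it was 48.29 (47.07 to 49.53) and 79.21 (77.63 to 80.82). The level was thus higher where deletion was intended. The sources used here do not say which exons the flox allele removes, and UMIs from outside them do not report deletion. Directions between treatments below therefore rest on the labels.

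All 9 members lay on the minus strand of their chromosomes in the GENCODE M21 annotation of GRCm38 (mm10). The C1q genes lay side by side in an 18675-base stretch, with C1qb at chr4:136880129-136886187, C1qc at chr4:136889804-136893065 and C1qa at chr4:136895917-136898803. C2 (chr17:34862604-34898265) ended 85 bases from Cfb (chr17:34856374-34862518), and the read-through gene Gm20547, which was not in the feature list, overlapped both, so their UMIs could be assigned unevenly. C4b (chr17:34728380-34743882) has the near-identical neighbour C4a (chr17:34809092-34823464), and its counts are uncertain for that reason. C3 lay at chr17:57203970-57228136, Hc at chr2:34983331-35061438 and Cfp at chrX:20925454-20931555.

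The start-site windows of C1qb and C1qc are shown because these neighbouring genes had nearly the same profile across cell sources. Each is a RefSeq GRCm38.p6 window on the gene's strand from 250 bases before to 50 bases after the start. RefSeq windows were matched for 5 of the 9 members (C1qb, C1qc, C3, Hc and Cfp). The C1qb window is chr4:136886151-136886450 and the C1qc window chr4:136892865-136893164, both on the minus strand. Capitals mark the letters GAGGAAG, the core of sites bound by the myeloid factor PU.1, searched on both strands.
C1qb: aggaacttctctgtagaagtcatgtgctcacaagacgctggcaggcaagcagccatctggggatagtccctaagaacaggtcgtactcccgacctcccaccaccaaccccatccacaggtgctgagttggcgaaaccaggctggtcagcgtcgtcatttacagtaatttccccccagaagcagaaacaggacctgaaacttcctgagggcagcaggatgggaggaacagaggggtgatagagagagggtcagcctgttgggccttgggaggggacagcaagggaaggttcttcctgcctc
C1qc: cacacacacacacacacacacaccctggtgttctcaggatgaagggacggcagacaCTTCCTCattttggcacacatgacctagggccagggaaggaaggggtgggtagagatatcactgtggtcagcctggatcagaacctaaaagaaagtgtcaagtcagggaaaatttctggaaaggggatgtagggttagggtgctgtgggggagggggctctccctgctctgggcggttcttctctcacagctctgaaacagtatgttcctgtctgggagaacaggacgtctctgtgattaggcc

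The C1qc window held 1 match, on the opposite strand at position -194 from the start, and the C1qb window held none. Of 32851 windows of the same length, 13.6% held these letters, so the match is a description only. TATAAA, the core of the TATA box, was in the C3 and Hc windows and in 13.6% of all windows. It lay after the annotated start in the C3 window and near the upstream end of the Hc window. These matches too are a description only.

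The C1q chains were highest in monocytes and macrophages, C2, C3 and C4b in fibroblasts, Hc in epithelial cells and Cfp in a cluster led by Cd209a and Asgr2. Cfb was spread over macrophages, fibroblasts and dendritic cells. In the whole portions these sources were the 481 and 384 cells of the monocyte or macrophage class (labelled vehicle, labelled tamoxifen), 909 and 489 of the Cd209a Asgr2 cluster, 1670 and 2124 alveolar macrophages, 211 and 200 dendritic cells, 658 and 509 neutrophils, 119 and 83 fibroblasts, and 1013 and 1011 epithelial cells. The Cd209a Asgr2 cluster was left unnamed because its leading genes belonged to more than 1 class. After depletion the immune classes held at most 7 cells each, and 6010 and 6462 epithelial cells and 197 and 115 fibroblasts remained. The endothelial class, which depletion of CD31+ cells was to remove, held 166 and 123 cells after it against 159 and 154 before, or 2.398% and 1.672% of cells against 2.246% and 2.52%.

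**Figure D1:**
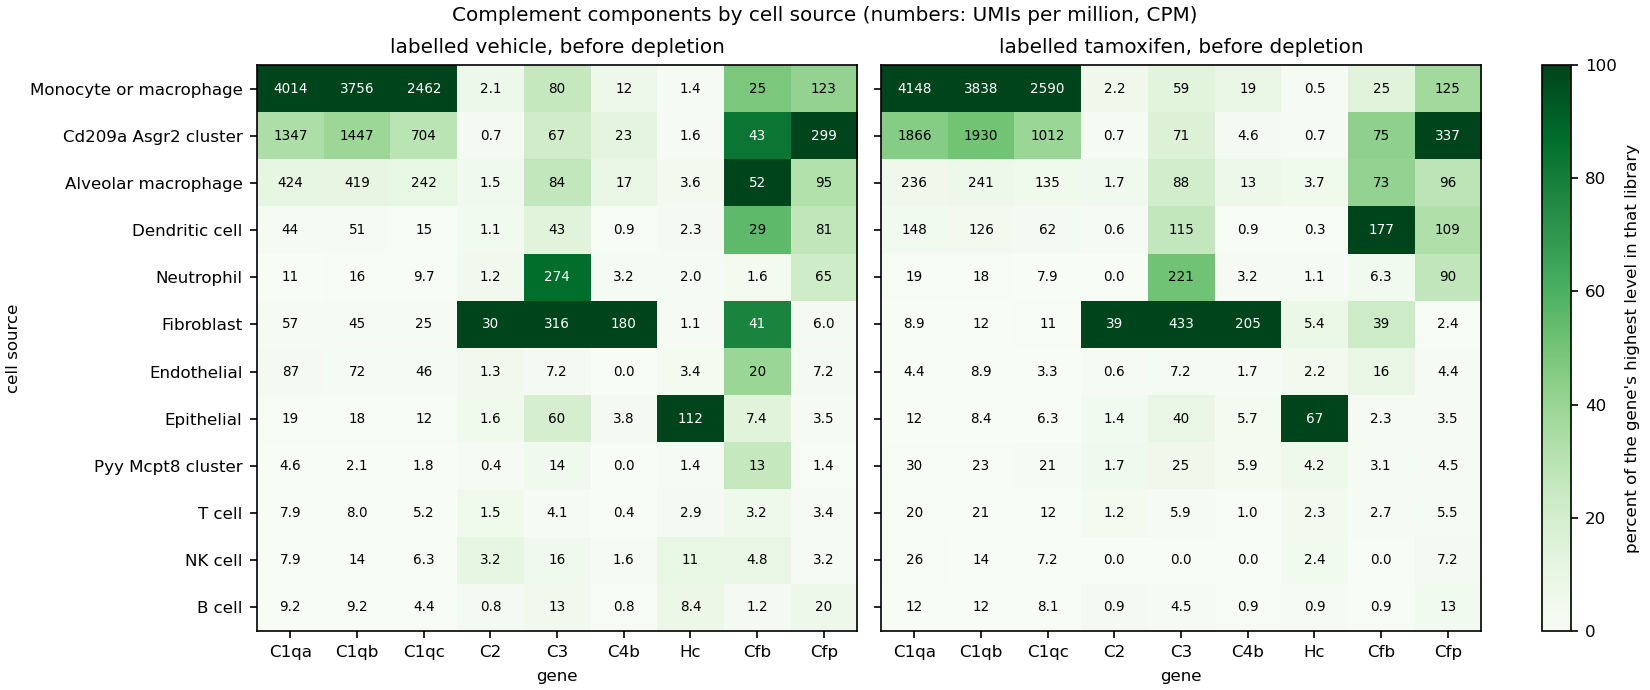
Level of each complement component (columns) in each cell source (rows) in the 2 libraries before depletion. Numbers are CPM, and colour is the percent of the gene's highest level in that library. C1qa, C1qb and C1qc peak in monocytes and macrophages, C2, C3 and C4b in fibroblasts, Hc in epithelial cells (112.1 and 66.88 CPM) and Cfp in the Cd209a Asgr2 cluster.

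C1qa, which encodes the A chain of C1q, stood at 4014 CPM (3967 to 4062) in monocytes and macrophages of the library labelled vehicle and at 4148 (4095 to 4202) in the one labelled tamoxifen. In the Cd209a Asgr2 cluster it stood at 1347 (1329 to 1364) and 1866 (1839 to 1894). In alveolar macrophages it stood at 424.1 (414.7 to 433.7) and 235.5 (229.2 to 242.0). The order of these sources was the same in both libraries, and none of their intervals overlapped.

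C1qb, the B chain, stood at 3756 and 3838 CPM in monocytes and macrophages, at 1447 and 1930 in the Cd209a Asgr2 cluster, and at 419.2 and 241.0 in alveolar macrophages. C1qc, the C chain, stood at 2462 and 2590, at 704.0 and 1012, and at 242.4 and 134.7 in the same sources. Both thus had the order of C1qa. Of all C1qa UMIs in the library labelled vehicle, monocytes and macrophages held 46.67%, the Cd209a Asgr2 cluster 38.33% and alveolar macrophages 12.77%. The shares in the library labelled tamoxifen were 48.47%, 36.62% and 11.08%. The composition of the chains shifted slightly between sources. C1qc made up 24.06% (23.75 to 24.37) of the C1q UMIs in monocytes and macrophages and 20.13% (19.81 to 20.45) in the Cd209a Asgr2 cluster in the library labelled vehicle, and 24.49% and 21.04% in the other.

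Clusters within a macrophage class differed more than the classes did. The cluster led by Ms4a7, a marker of tissue macrophages, held C1qa at 4920 and 5051 CPM. The other cluster of that class, led by Adgre4, a marker of patrolling monocytes, held it at 6.986 and 13.02. Among alveolar macrophages the cluster led by the cell-cycle genes Top2a and Pclaf held C1qa at 1599 and 1423 CPM. The cluster led by Lepr held 67.66 and 36.81, and the one led by Wfdc21 held 12.46 and 13.19. The cycling cluster made up 11.68% and 8.004% of alveolar macrophages. Over the whole class, 85 of 1670 and 58 of 2124 cells held at least 10 C1qa UMIs each, and together 96.39% and 93.6% of them. Since the cycling cluster held 195 and 170 cells, most of its cells held fewer than 10. A split of the monocyte or macrophage class and the Cd209a Asgr2 cluster together gave a further sub-cluster led by the alveolar macrophage genes Atp6v0d2, Chil3 and Ear2, in which C1qa stood at 2639 (2590 to 2689) and 2985 CPM (2936 to 3035). The interstitial macrophage-like sub-cluster of that split held 4918 and 5284.

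**Figure D2:**
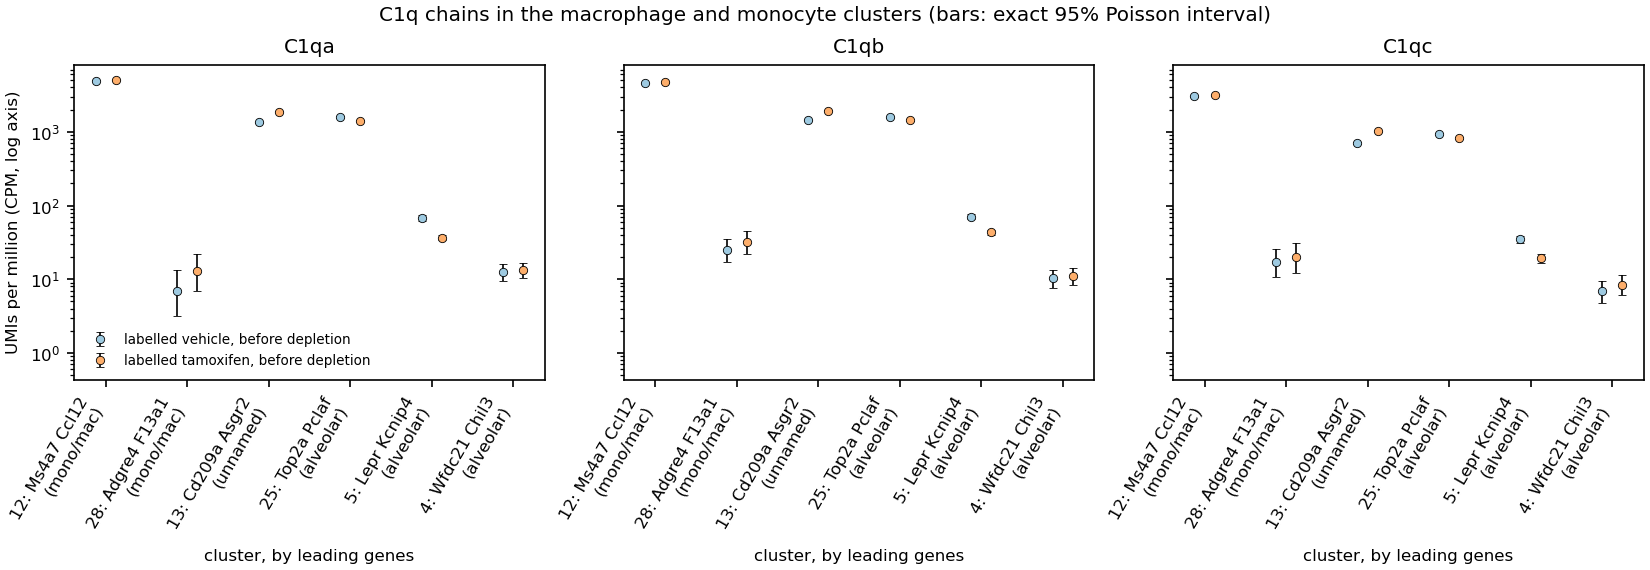
Level of C1qa, C1qb and C1qc (CPM, log axis) in the macrophage and monocyte clusters of the 2 libraries before depletion, with exact 95% Poisson intervals. The Ms4a7-led, Cd209a-led and cycling alveolar clusters hold each chain at 704.0 CPM or more, and the Adgre4-led and Wfdc21-led clusters at 32.04 or less. Most cells of the cycling alveolar cluster held fewer than 10 C1qa UMIs.

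The chains were found together in single cells. Cells were thinned to 2000 UMIs each so that depth did not set the shares. In monocytes and macrophages 70.89% of cells (66.61 to 74.92) in the library labelled vehicle and 71.8% (67.01 to 76.25) in the one labelled tamoxifen held UMIs of all 3 chains, against 73.39% and 75.72% that held any. Without thinning the shares with all 3 were 71.93% and 73.18%. Independent detection of the chains would give 37.44% and 40.05%. The class pools 346 and 283 Ms4a7-led cells with 135 and 101 Adgre4-led cells, which held little C1q. Such a mixture exceeds the independent value by itself, so this gap cannot show joint detection within a cluster. In the Cd209a Asgr2 cluster 37.5% and 51.97% held all 3 (61.17% and 67.28% without thinning), and in alveolar macrophages 3.869% and 2.133%. Over the alveolar macrophages of the library labelled vehicle, 22 of 1670 cells held at least 50% of the C1qa UMIs. In T cells, which do not make C1q, 1.333% and 2.537% of thinned cells held a C1qa UMI, against 72.35% and 73.63% of monocytes and macrophages. Median depths were 5806.5 and 6029 UMIs in T cells and 13579 and 13660.5 in monocytes and macrophages.

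In some sources outside the macrophages most C1q UMIs lay in few cells, while in others they were spread. In the library labelled vehicle, 28 C1qa UMIs lay in 27 of 658 neutrophils and 67 in 54 of 1168 T cells. With the tamoxifen label, 0 of 154 endothelial cells held at least 10 C1q UMIs, and 1 of 83 fibroblasts held 20.75% of that source's C1q UMIs. In the library labelled vehicle, 3 of 159 endothelial cells held 92.93% of that source's C1q UMIs, 5 of 119 fibroblasts held 89.17% and 6 of 1013 epithelial cells 75.86%. In the dendritic cells 7 of 211 cells held 78.12%, and in the library labelled tamoxifen 12 of 200 held 93.07%. These cells, each with at least 10 C1q UMIs, had monocyte or macrophage markers summing to 8580 CPM in endothelial cells against 594.2 in the rest. The sums were 9951 against 1335 in epithelial cells, 2055 against 1048 in fibroblasts, and 2383 against 695.4 and 4943 against 1029 in dendritic cells. Alveolar macrophage markers did not follow throughout. Their sums were 692.7 against 202.6 CPM in epithelial cells and 404.0 against 398.6 in fibroblasts. They were lower than in the rest in endothelial cells (137.4 against 808.2) and in dendritic cells (653.6 against 867.5 and 429.1 against 761.1). Among the remaining cells of all sources outside the macrophages before depletion, C1q UMIs summed to between 8.501 and 48.02 CPM. C1qa in epithelial cells was at 18.89 and 11.73 CPM before depletion and at 0.04866 and 0.008362 after it. Whether these UMIs came from macrophage RNA or from joined cells was not tested.

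**Figure D3:**
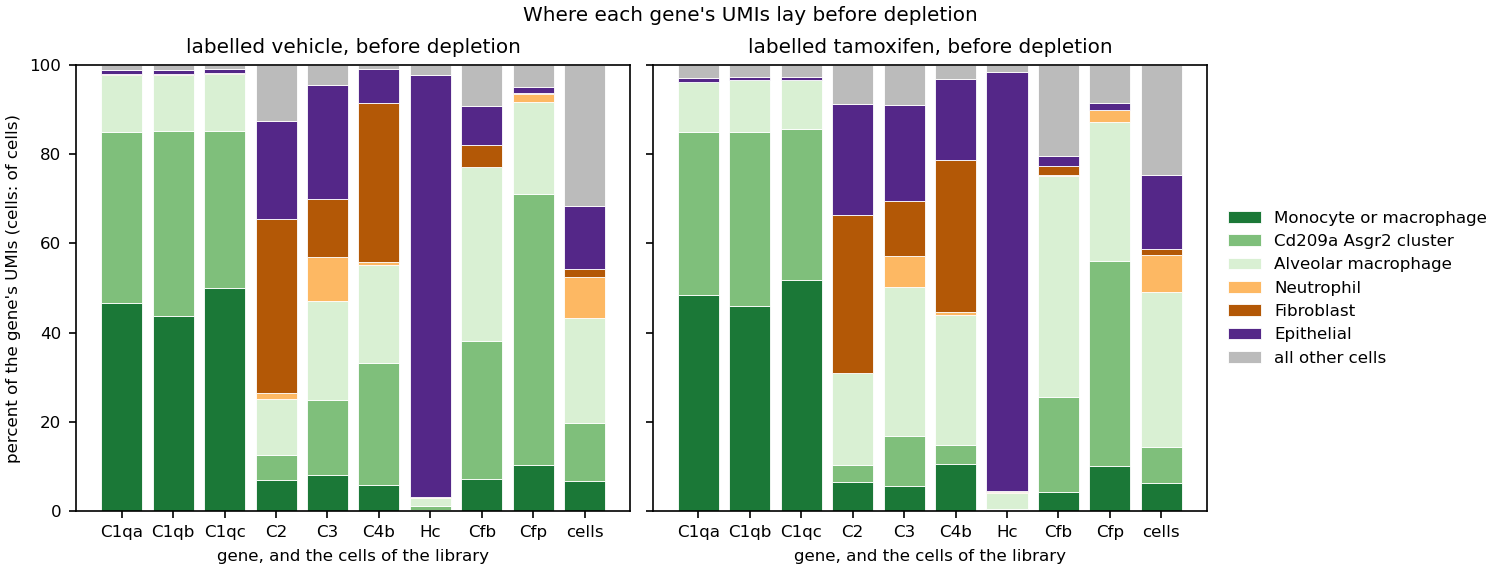
Share of each gene's UMIs held by each cell source in the 2 libraries before depletion, in percent, with the shares of cells in the last bar. Macrophage and monocyte sources hold most C1q UMIs, epithelial cells 94.66% and 93.91% of Hc, and fibroblasts 39.07% and 35.33% of C2 from 1.681% and 1.358% of cells.

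C4b and C2, the next members of the classical pathway, had their highest levels in fibroblasts. In fibroblasts C4b stood at 180.5 CPM (165.1 to 196.9) in the library labelled vehicle and 205.2 (184.0 to 228.0) in the one labelled tamoxifen before depletion, and at 84.95 (74.11 to 96.91) and 153.7 (133.0 to 176.7) after it. The value was lower after depletion for both labels. The Cd209a Asgr2 cluster held C4b at 22.86 and 4.596 CPM, alveolar macrophages at 17.29 and 13.11 and monocytes and macrophages at 11.59 and 19.03. Of all C4b UMIs, fibroblasts gave 35.77% and 34.16%, alveolar macrophages 22.0% and 29.2%, and the Cd209a Asgr2 cluster 27.48% and 4.27%.

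A small sub-cluster within the Cd209a Asgr2 cluster had the highest C4b level of any group described. It was led by Prg4 and Saa3 and held 39 cells in the library labelled vehicle and none in the others. C4b stood there at 841.2 CPM (757.2 to 932.0) from 366 UMIs, but only 28.21% of its cells held any. Over the whole Cd209a Asgr2 cluster of that library, a single cell of 909 held 25.83% of the 391 C4b UMIs. The level of the sub-cluster thus rests on few cells, which its interval does not take into account. Among epithelial sub-clusters C4b was highest in one led by Plppr1 in the libraries labelled tamoxifen, at 43.56 and 44.58 CPM before and after depletion. That sub-cluster held fewer than 20 cells in each library labelled vehicle, where the Bex2-led sub-cluster was highest instead, at 16.44 and 11.68 CPM. The paralog C4a reached at most 1.789 CPM in any source.

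C2 stood at 29.78 CPM (23.76 to 36.88) and 38.76 (29.92 to 49.41) in fibroblasts before depletion and at 20.76 (15.59 to 27.08) and 15.6 after it. Fibroblasts were the only source of at least 50 cells that reached 10 CPM in both whole portions. In the library labelled vehicle 34 of 119 fibroblasts held at least 1 C2 UMI and no cell held more than 8.333% of them. In the one labelled tamoxifen 21 of 83 did, with 21.54% in a single cell. The other proteases of the classical pathway shared this source. C1s1, which encodes a C1s subunit, stood at 170.9 and 183.1 CPM in fibroblasts, and C1ra, a C1r subunit, at 85.81 and 96.61, while C1s2 and C1rb were at most 0.554 CPM in any source.

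C3, where the pathways meet, was the most widely shared member and reached 10 CPM in 8 sources in both whole portions. Fibroblasts held it at 315.6 CPM (295.2 to 337.0) in the library labelled vehicle and 433.0 (402.0 to 465.6) in the one labelled tamoxifen, and at 172.6 and 167.7 after depletion. A C3 UMI was found in 59 of 119 and 30 of 83 fibroblasts, but few cells held most of them. In the library labelled vehicle 6 cells held at least 50% of the C3 UMIs, and in the one labelled tamoxifen 2 did, with 43.53% in a single cell.

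Neutrophils, which store complement receptors and matrix enzymes in granules, held C3 at 274.4 CPM (254.2 to 295.8) and 221.0 (200.4 to 243.2). The neutrophil and fibroblast intervals overlapped in the library labelled vehicle but not in the one labelled tamoxifen. In the latter 1 of 83 fibroblasts held 43.53% of their C3 UMIs, which the intervals do not take into account, so the order is uncertain. In neutrophils the UMIs were spread over many cells. After thinning, 31.94% (28.22 to 35.84) and 28.5% (24.24 to 33.08) of neutrophils held a C3 UMI, against 25.22% (17.58 to 34.17) and 22.89% (14.38 to 33.42) of fibroblasts and 1.067% and 0.7463% of T cells. Without thinning the shares were 44.68% and 37.52% of neutrophils and 49.58% and 36.14% of fibroblasts, whose median depths were 3421 and 3624 UMIs against 22521 and 17912. The neutrophil cluster led by Camp, a granule gene, held C3 at 335.2 and 270.5 CPM, and the one led by Retnlg, a gene of mature neutrophils, at 91.92 and 45.44. Fibroblast markers summed to 141.0 and 104.2 CPM in neutrophils, against 10430 and 8661 in fibroblasts.

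Alveolar macrophages held C3 at 83.75 and 88.44 CPM, monocytes and macrophages at 79.71 and 59.05, and the Cd209a Asgr2 cluster at 66.76 and 70.65. Within the monocyte or macrophage class the order was the reverse of that for C1q. The Adgre4-led cluster held C3 at 155.2 and 138.2 CPM and the Ms4a7-led cluster at 62.63 and 41.77. Of all C3 UMIs before depletion, epithelial cells gave 25.68% and 21.58%, alveolar macrophages 22.15% and 33.46%, fibroblasts 13.01% and 12.25%, and neutrophils 9.952% and 7.087%.

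Hc, which encodes C5, had its highest level in epithelial cells. Epithelial cells held it at 112.1 CPM (108.2 to 116.0) in the library labelled vehicle and 66.88 (64.07 to 69.79) in the one labelled tamoxifen, and at 73.63 (72.12 to 75.16) and 55.59 (54.26 to 56.94) after depletion. They gave 94.66% and 93.91% of the Hc UMIs before depletion and 98.59% and 98.93% after it. No other source of at least 50 cells reached 10 CPM in both whole portions.

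Epithelial cells were split into 13 sub-clusters, again without complement genes. Hc was highest in the alveolar type 2-like sub-cluster led by Cbr2 and Lyz1, at 393.5 and 402.9 CPM before depletion and 307.3 and 310.2 after it. A sub-cluster led by the interferon-induced genes Iigp1 and Ubd held it at 155.8 and 134.1 CPM after depletion. The Bex2-led sub-cluster held it at 105.8 and 39.94 before and 79.91 and 47.17 after. The sub-clusters led by Ttr, by Itih2 and Dlk1, and by Sprr1a held at most 12.96 CPM in every library where they held at least 20 cells.

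C3 in epithelial cells stood at 60.36 CPM (57.57 to 63.25) and 40.22 (38.04 to 42.49) before depletion and at 39.59 (38.49 to 40.72) and 32.3 (31.29 to 33.34) after it. After depletion its highest epithelial level was in the Iigp1-led sub-cluster, at 350.7 and 243.8 CPM from 47 and 61 cells. The alveolar type 2-like sub-cluster followed with 114.2 and 105.8, and before depletion it was the highest, with 151.5 and 128.3. Cfb after depletion was also highest in the Iigp1-led sub-cluster, at 48.19 and 52.17 CPM, against 8.062 and 2.283 over all epithelial cells of the same libraries. Before depletion it was highest in the Ttr-led sub-cluster with the vehicle label (13.52) and the Ccl6-led one with the tamoxifen label (7.326). These levels depend on how finely the cells are split. At Leiden resolution 1 the Iigp1-led sub-cluster held C3 at 178.6 and 163.6 CPM after depletion and was the highest before it too, at 192.3 and 183.7. Cfb was then highest in a Cd177-led sub-cluster with the vehicle label (21.45) and in the Iigp1-led one with the tamoxifen label (21.21) after depletion. C3 and Hc were found together in 4.979% of thinned epithelial cells (3.681 to 6.566) of the whole portion labelled vehicle, where independent detection gives 2.734%. In the whole portion labelled tamoxifen the share was 2.0%, against 1.092% for independent detection. Both genes were high in the alveolar type 2-like sub-cluster, so this gap over pooled cells cannot show joint detection within a sub-cluster.

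**Figure D4:**
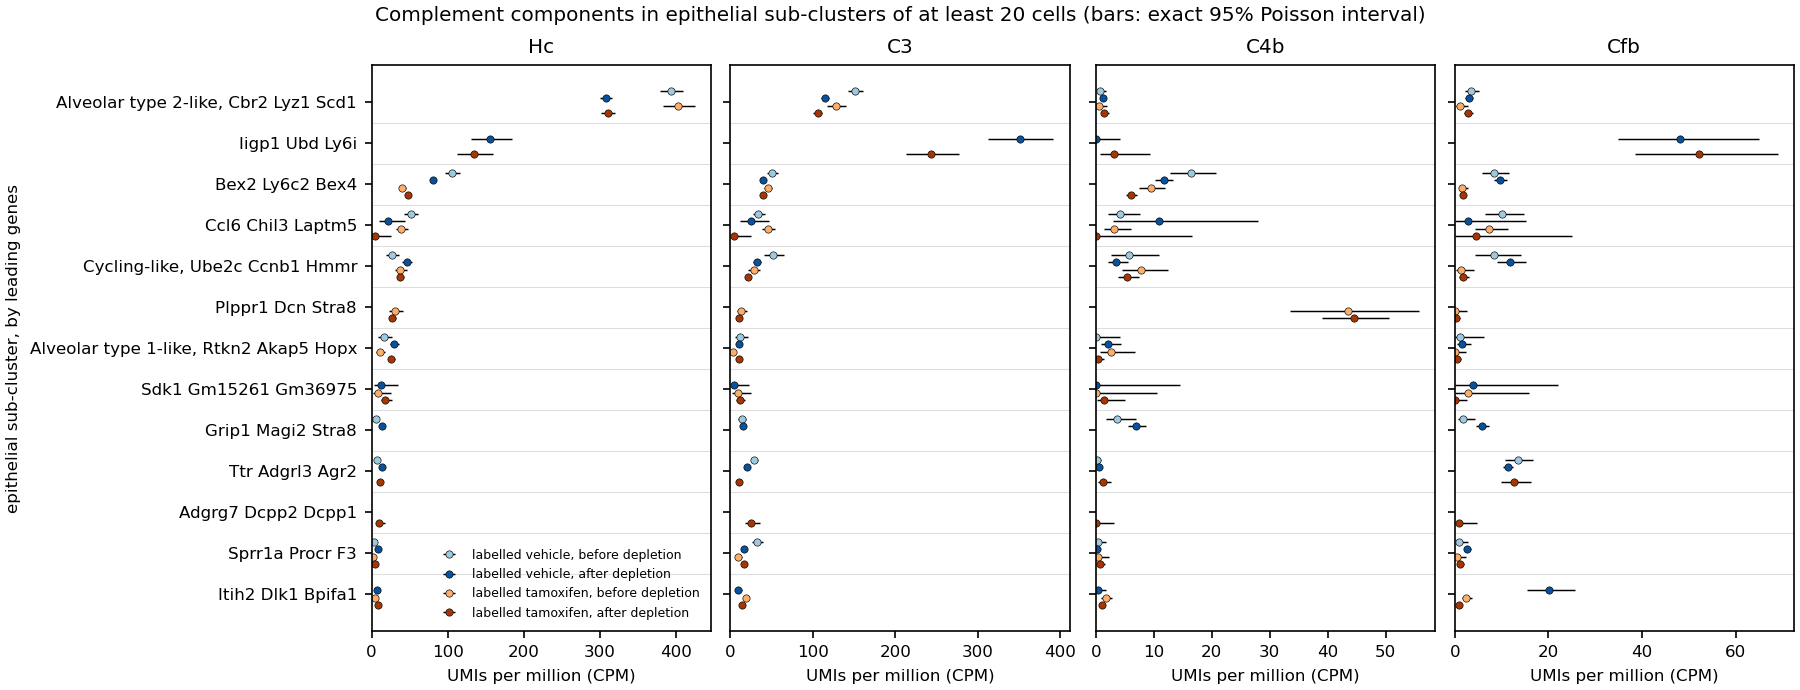
Level of Hc, C3, C4b and Cfb (CPM) in epithelial sub-clusters with at least 20 cells in a library, with exact 95% Poisson intervals, in all 4 libraries. Hc peaks in the alveolar type 2-like sub-cluster in all 4. After depletion C3 and Cfb peak in the Iigp1-led sub-cluster, which held under 20 cells before it, and C4b peaks in the Plppr1-led sub-cluster in the libraries labelled tamoxifen (43.56 and 44.58 CPM).

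Cfb, the protease precursor of the alternative pathway, had no single source. In the library labelled vehicle it stood at 52.21 CPM (48.93 to 55.64) in alveolar macrophages, 43.49 (40.42 to 46.73) in the Cd209a Asgr2 cluster and 40.78 (33.67 to 48.95) in fibroblasts. The fibroblast interval overlapped both others. In the library labelled tamoxifen the values were 73.09, 75.03 and 39.36. Alveolar macrophages gave 39.08% and 49.65% of the Cfb UMIs and the Cd209a Asgr2 cluster 30.77% and 21.27%. Dendritic cells stood at 28.8 and 177.2 CPM, but 1 of 211 cells held 50.5% of the UMIs in the first library and 2 of 200 held at least 50% in the second. After thinning, 3.828% (1.667 to 7.403) and 5.025% (2.436 to 9.047) of dendritic cells held a Cfb UMI, and these intervals overlapped. Without thinning the shares were 9.479% and 12.5%, and in thinned T cells 0.08889% and 0.7463%.

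Cfp, which encodes properdin, had its highest levels in myeloid sources. The Cd209a Asgr2 cluster held it at 299.2 CPM (291.0 to 307.5) and 337.2 (325.5 to 349.2), monocytes and macrophages at 123.2 and 124.6, alveolar macrophages at 95.35 and 95.71, dendritic cells at 81.28 and 108.7, and neutrophils at 64.87 and 90.5. The first place went to the Cd209a Asgr2 cluster in both libraries with no overlap of intervals. In that cluster 39.19% and 42.86% of thinned cells held a Cfp UMI (89.55% and 89.37% without thinning), against 0.6222% and 0.8955% of thinned T cells. Within the myeloid split the dendritic cell-like sub-cluster led by Klrd1 and Cd209d held 399.7 and 492.7 CPM, and the Prg4-led sub-cluster held 604.5 in the 1 library where it was found. Outside myeloid cells it was at most 19.69 CPM, in B cells of the library labelled vehicle.

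Profiles over 33 combinations of source and library with at least 50 cells were compared for 13637 genes by Pearson correlation of log2(CPM + 1), as a description without a test, since the profiles share libraries and cell types. The chains of C1q were most like each other (C1qa with C1qb 0.994 and with C1qc 0.992). The next gene for C1qa was the macrophage elastase Mmp12 (0.955), and for C1qc the scavenger receptor Msr1 (0.945). Cfp was most like I830077J02Rik (0.964), Pirb (0.961) and Gm2a (0.961), and its correlation with C1qa was 0.862. C2 was most like Cpxm1 (0.945), Atp1b2 (0.940) and Ldb3 (0.934). C4b was most like Cspg4 (0.879), Igf1 (0.873) and Abca8a (0.872). The most similar genes to C3 were Cd302 (0.860), Gsn (0.850) and C1rl (0.839), to Hc they were Gm40999 (0.914), Acoxl (0.912) and 2610028H24Rik (0.911), and to Cfb they were Slc8a1 (0.844), Vwa5a (0.844) and Spire1 (0.835).

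The labelled treatments were compared within each source as log2 ratios, labelled tamoxifen over labelled vehicle, with 1 CPM added to both. The interval beside a ratio is that of the ratio without the added CPM. A ratio of at least 2-fold with at least 10 CPM in either library was counted as passing a rule of size, which is not a test. A change in a source's RNA per cell and a change in the mixture of its cells cannot be told apart in these sums. The large macrophage sources kept their C1q levels within that rule. In monocytes and macrophages 0 of the 7 members that reached 10 CPM passed, where 0.767% of all genes did, and the ratios were 0.05 (0.02 to 0.07) for C1qa, 0.03 for C1qb and 0.07 for C1qc.

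In alveolar macrophages 0 of 7 members passed, against 1.07% of genes, and C1q was lower with a ratio of -0.85 (-0.90 to -0.80) for C1qa, -0.80 for C1qb and -0.84 for C1qc. By cluster the C1qa ratio was -0.17 in the cycling cluster, -0.86 in the Lepr-led cluster and 0.08 in the Wfdc21-led cluster. Monocyte or macrophage markers summed to 1936 CPM in alveolar macrophages labelled vehicle and 1316 in those labelled tamoxifen, and their part in the ratio was not tested. In the Cd209a Asgr2 cluster the ratios were of the other sign, 0.47 (0.44 to 0.50), 0.42 and 0.52, and 1 of 7 members passed, lower, against 0.987% of genes in either direction. Monocyte or macrophage markers there summed to 5632 and 7759 CPM.

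The member that passed in the Cd209a Asgr2 cluster was C4b, with 22.86 CPM labelled vehicle, 4.596 labelled tamoxifen and a ratio of -2.09 (-2.80 to -1.86). Of its UMIs in the first library, at least 50% lay in 3 of 909 cells. Without the Prg4-led sub-cluster, which only that library held, the ratio was 1.16.

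Over all epithelial cells Hc and C3 were lower in the library labelled tamoxifen in both portions, by less than 2-fold. The Hc ratio was -0.74 (-0.82 to -0.67) before depletion and -0.40 (-0.45 to -0.36) after it, and the C3 ratio was -0.57 (-0.69 to -0.48) and -0.29 (-0.35 to -0.23). Before depletion 1 of the 5 members that reached 10 CPM passed, lower, against 2.09% of genes in either direction, and this was C1qb (18.31 and 8.396 CPM, ratio -1.04). It passed under 5 of 11 alternatives, and its ratio was 0.02 without a sub-cluster led by Ccl6 and Chil3, genes of macrophages. After depletion 0 of 2 passed, against 1.96%. Within clusters the direction was mixed. Hc was lower in 3 of 8 epithelial clusters before depletion and 6 of 9 after it, with mean ratios over clusters of 0.12 and -0.13. C3 was lower in 5 of 8 and 4 of 9, with mean ratios of -0.02 and -0.03. Within the alveolar type 2-like sub-cluster Hc did not follow the whole, with ratios of 0.03 (-0.06 to 0.13) and 0.01 (-0.04 to 0.07). The cluster led by Lyz1 and Cbr2 in the clustering of all cells, which held Hc at 436.0 and 422.1 CPM before depletion, was 31.79% of epithelial cells labelled vehicle and 17.11% of those labelled tamoxifen. After depletion it was 24.18% and 15.78%. In the Bex2-led sub-cluster the Hc ratio was -1.38 (-1.62 to -1.19) before and -0.75 (-0.87 to -0.66) after depletion.

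Cfb in epithelial cells stood below 10 CPM and so could not pass, yet it was lower under the tamoxifen label in both portions. It stood at 7.351 CPM (6.399 to 8.405) labelled vehicle and 2.296 (1.799 to 2.886) labelled tamoxifen before depletion, and at 8.062 (7.568 to 8.579) and 2.283 (2.02 to 2.57) after it. The intervals of the 2 labels did not overlap in either portion. Within the clusters of all cells it was lower in 7 of 8 before depletion and in 8 of 9 after it, with cluster ratios from -2.21 to 0.76 after depletion. The exception after depletion was the cluster led by Ly6i and Iigp1 (11.62 and 20.45 CPM). By sub-cluster the fall was less uniform. After depletion the ratio was -0.03 (-0.67 to 0.56) in the alveolar type 2-like and 0.15 (-0.24 to 0.54) in the Ttr-led sub-cluster. It was -0.84 in the Sprr1a-led, -0.83 in the alveolar type 1-like, -1.95 in the Bex2-led, -2.17 in the cycling-like and -3.40 in the Itih2-led one. The Pyy Mcpt8 cluster was an unnamed group led by Pyy, Mcpt8 and Mcpt1 with 67 and 71 cells before and 516 and 628 after depletion. Its best class was epithelial, with 12 of 12 epithelial markers seen. The name was withheld because a marker of another class was among its leading genes, so it is not part of the epithelial cells above. This cluster also had lower Cfb, at 13.11 and 3.116 CPM (ratio -1.78) and at 15.23 and 2.233 (ratio -2.33). There 1 of the 5 members that reached 10 CPM was lower and 3 higher before depletion, against 5.13% of genes, and after it 1 of 2 was lower, against 2.09%. The 3 higher members were the C1q chains, and 1 cell held 85.51% of their UMIs in the library labelled tamoxifen.

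**Figure D5:**
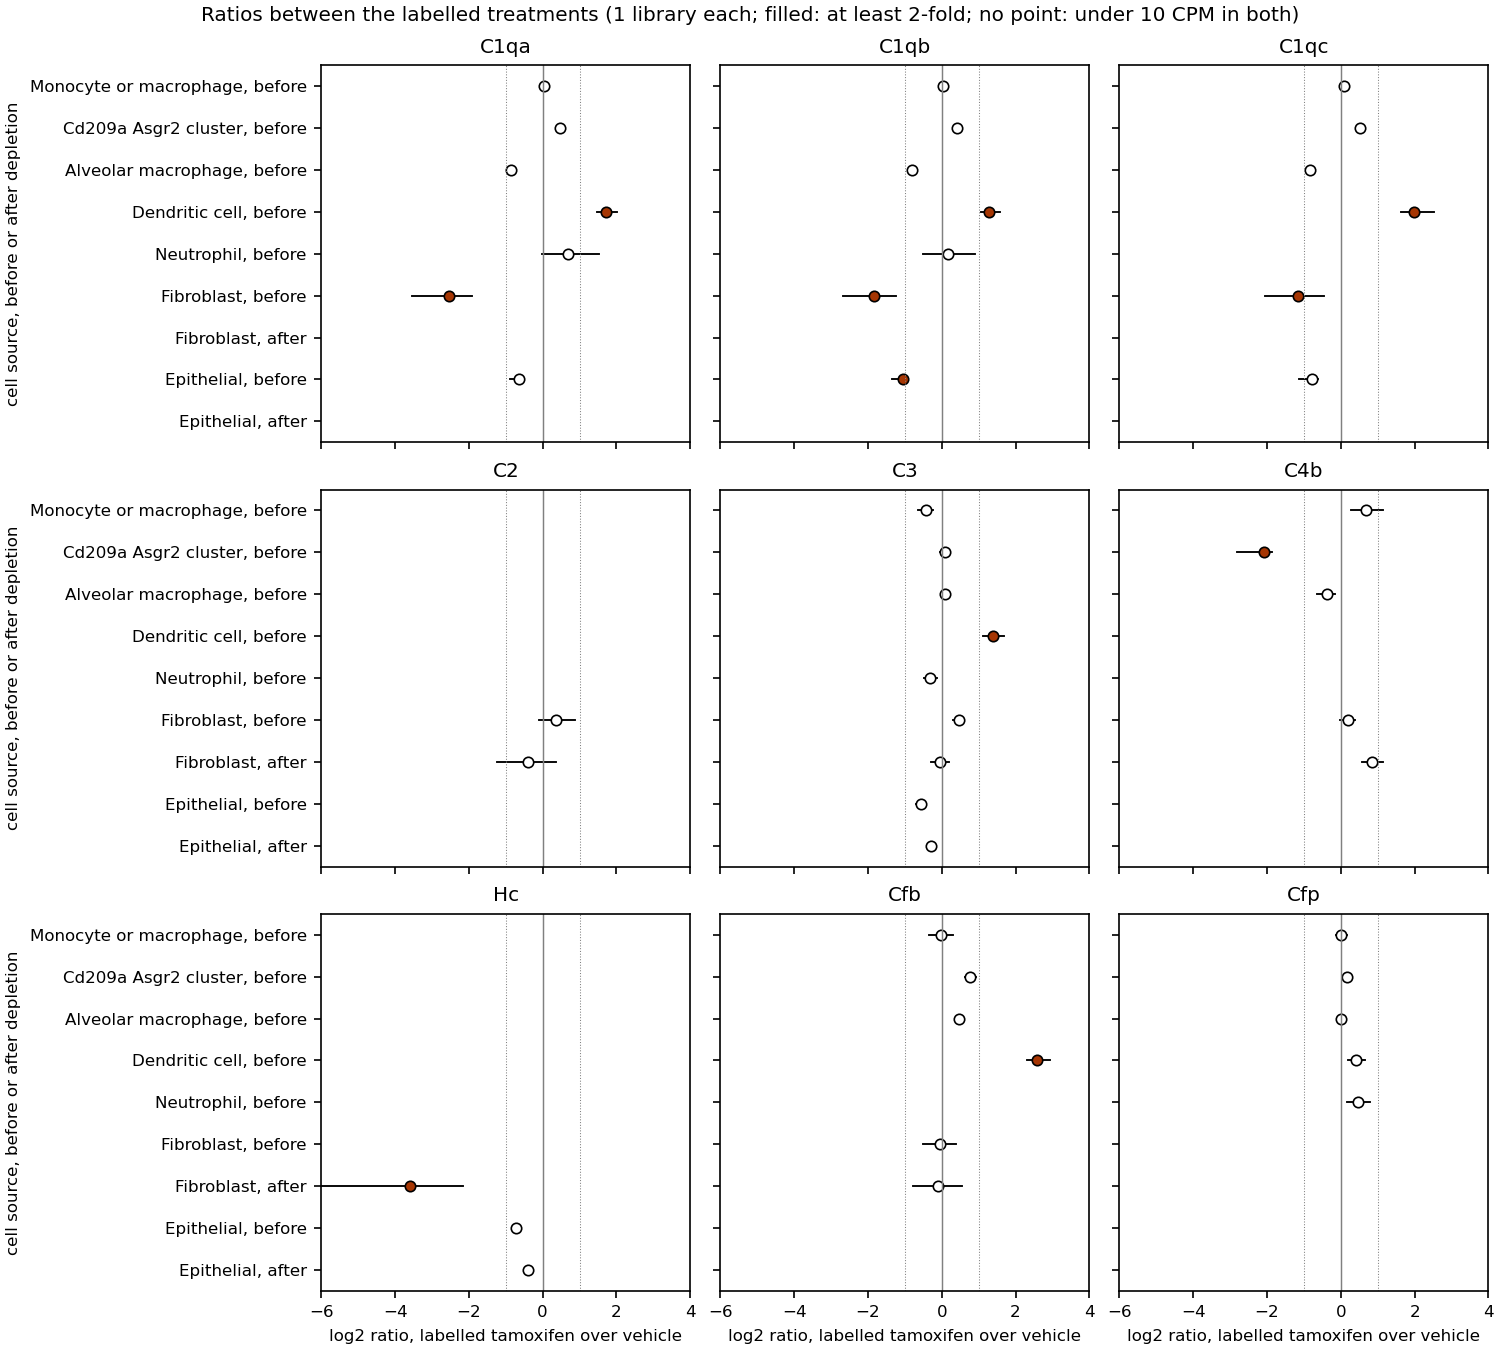
Log2 ratio of the library labelled tamoxifen over the one labelled vehicle for each member in 9 combinations of source and portion, 1 library per group. Points include 1 CPM added to both, lines are 95% intervals without it and end at the axis limit, filled points are at least 2-fold, and rows without a point were under 10 CPM in both libraries. C1q in monocytes and macrophages lies between 0.03 and 0.07, in alveolar macrophages between -0.85 and -0.80, and the filled points belong to dendritic cells, fibroblasts, the Cd209a Asgr2 cluster (C4b) and epithelial cells (C1qb).

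Fibroblasts kept C2, C3, C4b and Cfb within 2-fold between the labels in both portions. The ratios before depletion were 0.37 (-0.11 to 0.86) for C2, 0.46 (0.31 to 0.60) for C3, 0.18 (-0.02 to 0.39) for C4b and -0.05 for Cfb. After depletion they were -0.39 for C2, -0.04 for C3, 0.85 (0.57 to 1.14) for C4b and -0.09 for Cfb. Of 7 members 3 passed before depletion, all lower, against 5.49% of genes. These were the C1q chains, whose UMIs labelled vehicle lay in few cells. After depletion 1 of 5 passed, lower, against 4.87%. It was Hc, with 53 UMIs in 16 of 197 cells labelled vehicle and 1 UMI labelled tamoxifen.

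Neutrophils had no member past the rule, 0 of 4 against 4.12% of genes. The C3 ratio there was -0.31 (-0.49 to -0.13) and the Cfp ratio 0.47 (0.16 to 0.80). In dendritic cells 5 of 6 members were higher under the tamoxifen label, against 2.9% of genes, with ratios of 2.58 (2.31 to 2.94) for Cfb, 1.73 for C1qa, 1.29 for C1qb, 1.99 for C1qc and 1.38 for C3. The cells with at least 10 C1q UMIs numbered 7 and 12 in the 2 libraries. At least 50% of the C3 UMIs lay in 2 and 4 cells, and at least 50% of the Cfb UMIs in 1 and 2. By cluster, Cfb stood at 56.09 and 445.0 CPM in the cells led by Ccl22, a gene of mature dendritic cells, and had 0 UMIs in the Xcr1-led cluster of 42 and 50 cells. With no doublets removed the C1q and C3 ratios in dendritic cells were below 2-fold. At Leiden resolution 2 the ratios of C1qa, C1qb and C1qc were 0.02, -0.17 and 0.16, while Cfb passed under all 9 alternatives run for it.

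Small or C1q-poor sources gave the remaining passes. Endothelial cells had 3 of 4 members lower before depletion, against 4.55% of genes, and 0 of 1 after it, against 5.25%. T cells had 3 of 3 higher, against 1.94%. These were the C1q chains in both sources, and in T cells their ratios were -0.26, -0.07 and -0.38 with no doublets removed. B cells had 1 of 4 lower, C3 from 33 and 5 UMIs, against 5.66%. NK cells had 1 of 4 higher and 2 lower, against 14.9%, from at most 11 UMIs each.

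The other 43 complement genes of the lists were measured in the same sources, and 23 reached 10 CPM in a source of a whole portion. None of the 8 lectin pathway genes and neither Cfd, the protease of factor B, nor C4a did. The lectin gene with the highest level was Fcnb, at 8.059 CPM in neutrophils labelled vehicle and 0 in those labelled tamoxifen. Of the terminal pathway genes, C6 was epithelial (57.75 and 55.88 CPM) and C7 fibroblast (43.61 and 14.91), and the other 4 were at most 4.939 CPM in any source. Among soluble regulators Serping1, the C1 inhibitor, stood at 693.6 and 709.1 CPM in fibroblasts, while Clu, clusterin, stood at 11400 and 15470 in the Pyy Mcpt8 cluster. All 6 membrane regulators reached 10 CPM, led by Cd55 in B cells (373.4 and 299.5). Of the 9 receptors 8 did, with Cd93 in endothelial cells (844.1 and 769.0), Itgam in neutrophils (662.4 and 631.4), the C5a receptor C5ar1 in neutrophils (581.8 and 643.0) and the C3a receptor C3ar1 in monocytes and macrophages (319.1 and 292.4).

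Among these other genes, 1 of the 9 that reached 10 CPM in epithelial cells before depletion passed the rule of size between the labels, against 2.09% of all genes, and 1 of 8 after it, against 1.96%. In alveolar macrophages 2 of 11 passed, against 1.07%, and in monocytes and macrophages 0 of 10, against 0.767%. Cfi, factor I, which cleaves C3b and C4b, stood in epithelial cells at 46.1 CPM (43.67 to 48.64) labelled vehicle and 16.35 (14.98 to 17.82) labelled tamoxifen before depletion, a ratio of -1.44. After depletion it stood at 58.63 and 19.88, a ratio of -1.51. Like Cfb, it was lower in 7 of 8 and 8 of 9 epithelial clusters, and the Ttr-led cluster was the exception after depletion (105.4 and 144.1 CPM). That cluster was 20.58% of epithelial cells labelled vehicle and 1.919% of those labelled tamoxifen after depletion. In alveolar macrophages Clu was higher, at 37.95 and 118.1 CPM (ratio 1.61), and Itgam lower, at 21.77 and 9.455 CPM (ratio -1.12).

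The portions of each label were also compared, as after over before depletion. In epithelial cells 3 of 5 members passed lower with the vehicle label, against 0.598% of genes, and these were the C1q chains. With the tamoxifen label 1 of 3 passed lower, C1qa, against 0.528%. The ratios of Hc and C3 lay between -0.60 and -0.26. In fibroblasts 4 of 8 members were lower and 1 higher with the vehicle label, against 8.87%, and 4 of 6 lower with the tamoxifen label, against 6.29%. Apart from C1q chains the lower members were C4b with the vehicle label (ratio -1.08) and C2 (-1.26) and C3 (-1.36) with the tamoxifen label, and the higher member was Hc (1.064 and 20.37 CPM). In endothelial cells 3 of 4 members, the C1q chains, were lower with the vehicle label, against 7.42%, and 0 of 1 passed with the tamoxifen label, against 5.88%. In the Pyy Mcpt8 cluster 0 of 2 passed with the vehicle label, against 2.23%, and 3 of 4, the C1q chains, were lower with the tamoxifen label, against 2.36%.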

How the data were processed

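Single-cell RNA-seq of mouse lung tumours was analysed as 4 libraries of 1 group each. The deposited files hold UMI counts per gene and cell, made by the authors with Cell Ranger (7.0.1 per the file headers, 7.2.0 per the submitters' processing notes) on mm10, per those notes. Intron and strand settings are not given in the sources used here. Cells with at least 200 genes, at most 20% mitochondrial UMIs and a Scrublet score up to 0.25 were kept. The fixed score removed 225, 116, 120 and 153 cells (vehicle and tamoxifen before depletion, vehicle and tamoxifen after it), because automatic thresholds marked 188, 1, 1 and 0. Cells were clustered with scanpy 1.11.5 (2000 variable genes, 40 components, 15 neighbours, Leiden resolution 1, and 0.5 within a class) without complement genes. Counting error limits each level to the intervals given. A count of 0 allows up to 3 UMIs of the total. Shares across depths used cells thinned to 2000 UMIs, which left out 250, 208, 153 and 67 shallower cells in that order. Sources with under 50 cells, and clusters with under 20, were not compared.

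The 9 members are always named. Of the other complement genes, the highest of each role and those past the rule of size in epithelial cells, alveolar macrophages or monocytes and macrophages are named, with C3ar1, C5ar1, C1ra, C1s2, C1rb, C7 and Serping1 added after their values were seen. The 3 genes most like each member and the leading genes of clusters complete the rule. The members and lists were chosen with earlier results of these data known. No test across libraries was possible. The rule of size and the intervals were tried on simulated Poisson counts, which have the spread that the intervals assume. That trial does not cover UMIs clumped in few cells or the spread between animals. Alternatives covered scaling (edgeR 4.0.16, DESeq2 1.42.0 size factors), the added CPM, filters, doublets, clustering and a gate on each cell. The genotype holds 1 further allele that is not reported here.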

Additional observations from a re-analysis of the deposited data

Results flagged for a closer look

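The ratios of labelled tamoxifen over labelled vehicle passed the rule of size in opposite directions in different sources for 5 members, C1qa, C1qb, C1qc, C3 and Cfb. For C1qb, C3 and Cfb this held between sources whose ratio had the same sign in every portion compared, and the most distant pair of each is given here. Dendritic and NK cells were compared before depletion only, so they met this condition by design. For C1qb the ratios after depletion rest on few UMIs, 0 labelled vehicle and 1 labelled tamoxifen in the Pyy Mcpt8 cluster. In epithelial cells they were 12 and 7. For C1qa and C1qc the lower calls were in endothelial cells (-4.024 and -3.443) and fibroblasts (-2.546 and -1.157) before depletion, whereas after it endothelial cells held 0 UMIs of either gene and the fibroblast ratios were above 0, from 5 and 6 UMIs labelled tamoxifen. The difference between the sources was not tested, since each group held 1 library. C1qb had a log2 ratio of 2.911 in the Pyy Mcpt8 cluster, whose best class was epithelial, and -1.039 in epithelial cells before depletion. In the first of these 1 cell held 85.51% of the C1q UMIs labelled tamoxifen, and in the second 6 cells held 75.86% of those labelled vehicle. C3 had a ratio of 1.384 in dendritic cells and -4.076 in NK cells before depletion. The NK cell value rests on 10 and 0 UMIs and depends on the added CPM, so it is no bound. Cfb had a ratio of 2.58 in dendritic cells before depletion and -2.328 in the Pyy Mcpt8 cluster after it. The dendritic cell value rests on few cells, with at least 50% of the UMIs in 1 cell labelled vehicle and in 2 labelled tamoxifen, whereas the other value rests on 194 and 32 UMIs.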

How the results depend on the processing

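Of 144 member ratios between the labels, 26 passed the rule of size and 13 of these did so under every alternative run for them. Most of the 13 were C1q chains in endothelial cells, fibroblasts and the Pyy Mcpt8 cluster before depletion. There, few cells held most C1q UMIs of the library with the higher level. The rest were Hc in fibroblasts after depletion and Cfb in dendritic cells and the Pyy Mcpt8 cluster. For that cluster only 5 alternatives were run, without other clustering or doublet settings. Dropping the CPM minimum can remove no pass. By source and portion, 0.767% to 14.9% of all genes passed. Over 1242 combinations of ratio and alternative, 1078 stayed within the ratio's counting interval, 156 moved out of it and 8 reversed a passing ratio. Among named sources 9 ratios were higher and 11 lower. Without a CPM minimum the counts were 16 and 21, and without doublet removal 2 and 24. With a gate on each cell they were 0 and 2, over 9 combinations only. Epithelial cells after depletion alone kept 50 cells in both libraries of a pair. Before depletion only neutrophils labelled vehicle kept that many (101), so the gate gave no order of sources. The other alternatives gave 6 to 9 higher and 8 to 13 lower. The C1qb ratio in epithelial cells became 0.2709 under stricter limits on cells (1000 genes, 10% mitochondrial UMIs) and 0.01921 without the sub-cluster led by Ccl6 and Chil3. Without doublet removal C1qa, C1qb and C1qc in T cells became -0.2561, -0.0717 and -0.3764 and C1qa in NK cells -1.957. At Leiden resolution 2 C1qb in dendritic cells became -0.1716, and C1qa and C1qc there no longer passed. C4b in the Cd209a Asgr2 cluster became 1.163 without the sub-cluster led by Prg4 and Saa3. The cause of these moves was not tested, except that the last leaves out 39 cells of 1 library. The highest source was checked among named classes only, so Cfp in the Cd209a Asgr2 cluster was not checked. By CPM the highest class was the same for 17 of 18 combinations of gene and library under a mean over cells. It was the same for 16 without doublet removal. The class with the highest share of thinned cells was the same for 16 without thinning. The alternatives that left out sub-clusters, counted the Pyy Mcpt8 cluster as epithelial or skipped thinning of paired detection were chosen after seeing the data. No paired analysis was possible because each group holds 1 library, so no replicate could be left out either. Depth limits members under 10 CPM and sources with few cells.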
